A study of Drosophila melanogaster with 16 samples.

Results

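The 8 Hox genes of *Drosophila*, *lab*, *pb*, *Dfd*, *Scr*, *Antp*, *Ubx*, *abd-A* and *Abd-B*, were followed through 3 lists of TaDa binding peaks from larval wing discs, one each for Psi, RNA polymerase (RNA Pol) and Myc. The genes were taken by symbol from the Ensembl annotation of BDGP6, where they are 8 of 13945 protein-coding genes on the chromosome arms, and every peak that overlapped one of them or lay within 5 kb was assigned to it. Of 1710 Psi, 1568 RNA Pol and 1951 Myc peaks, 16 were assigned in this way, 4 from the Psi list and 6 from each of the others.

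In Targeted DamID (TaDa) a bacterial DNA adenine methylase (Dam) is tethered to a protein and marks nearby GATC sequences, which are then cut out and sequenced. The study compared Dam fusions of Psi, of Myc and of Polr2F (RpII18), a subunit common to the RNA polymerases, in 3 samples each, with Dam alone in 7 samples. All 16 samples were wing imaginal discs of female larvae labelled mid-third instar that carried *sd*-GAL4 with *tub*-GAL80ts and a UAS transgene. Embryos from lays of under 4 h at 25°C were held at 18°C for 7 days and moved to 29°C for 24 h, when GAL80ts releases GAL4. The Psi and RpII18 transgenes sat at the attP2 landing site, and no source used here names the sites of the Myc and Dam-only transgenes. By this design Dam was made in cells in which *sd*-GAL4 was active, and disc cells outside that pattern were not profiled. Dam-only sample 1 was the control for both a pair of Psi samples and 1 of the RNA Pol samples, so values of these lists are set side by side and their overlap is not read as a result. Each list was called on the mean of 3 samples, so no spread between samples, no depth and no test is available for any peak. A peak carries a score and a false discovery rate (FDR) from the peak caller. The formula of the score was not stated, so scores are ranked only within a list.

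Hox genes encode homeodomain transcription factors that give body segments their identity, and in *Drosophila* they lie in the Antennapedia complex (*lab* to *Antp*, head and thorax) and the bithorax complex (*Ubx* to *Abd-B*, thorax and abdomen), broadly in the order of the segments they specify. Outside their own segments they are held silent by Polycomb group proteins, and in their segments they are kept active through long introns and intergenic enhancers. The wing grows from the second thoracic segment, where *Antp* is the Hox gene in use, while *Ubx* turns the same primordium into a haltere one segment further back. Expression was not analysed here, so this division between *Antp* and the silent genes is background and not a measurement.

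Of the 16 peaks at the Hox genes, 8 were at *Antp*, 7 of them overlapping the gene. The other 7 genes shared the remaining 8 peaks, and 5 of those lay outside the gene. Psi peaks were found at *Antp* alone, where there were 4. RNA Pol peaks were assigned to *Antp* (3), *lab* (2) and *Ubx* (1), and Myc peaks to *Antp* (1), *lab* (2), *Scr* (1) and *Ubx* (2). No peak of any list came within 5 kb of *pb*, *Dfd*, *abd-A* or *Abd-B*. The even split of 8 and 8 depended on the FDR threshold: at 0.1%, 3 peaks were left at *Antp* and 7 at the other genes. Of the Psi peaks at *Antp*, 1 was left.

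**Figure D1:**
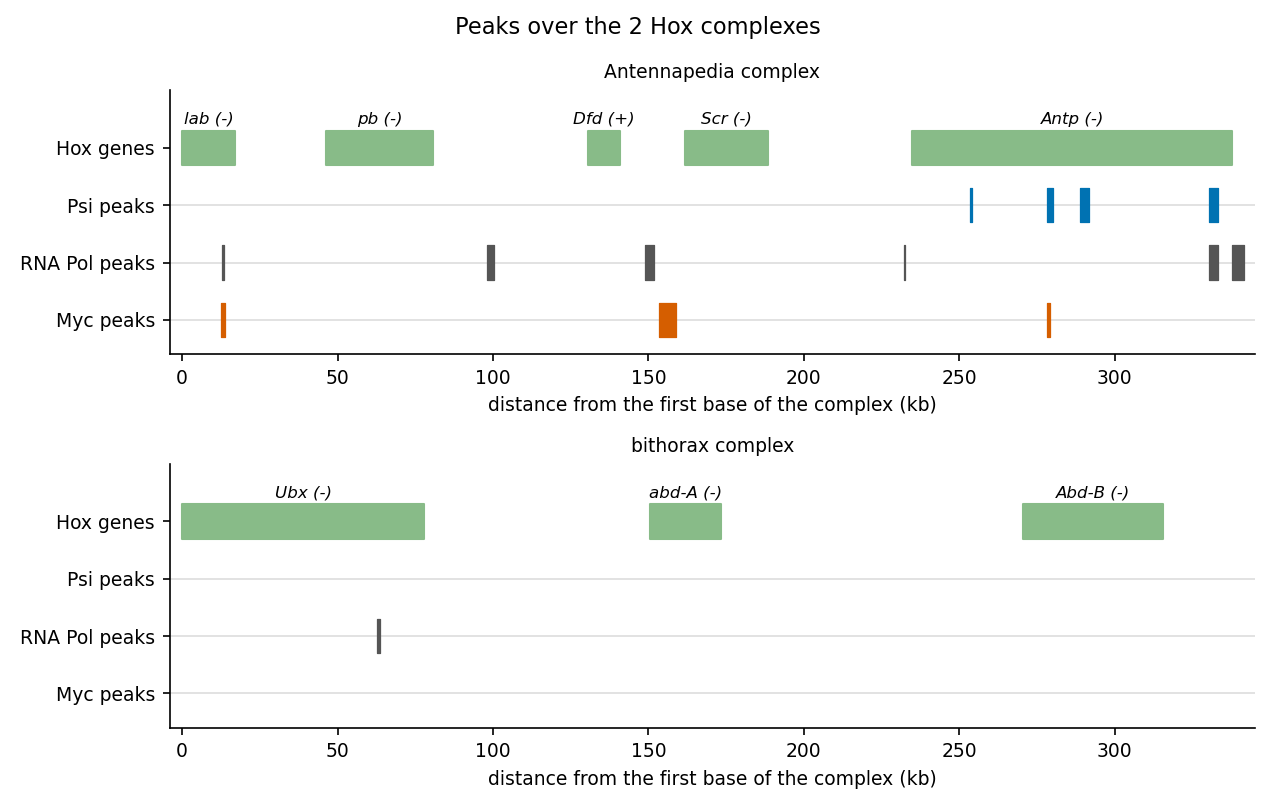
Map of both Hox complexes, with distance from the first base of the complex in kb on the x axis and rows for the Hox genes (green boxes, strand in brackets) and for Psi, RNA Pol and Myc peaks that overlap a complex, drawn to scale. All 4 Psi peaks lie in *Antp*, and the bithorax complex holds 1 peak, of RNA Pol, inside *Ubx*.

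The bases that carry these peaks are shown first, because every later value refers to them. All are on chromosome arm 3R of BDGP6, read from the RefSeq Release 6 genome, which is the same assembly. The central 300 bases of 3 of the 4 Psi peaks of *Antp* are given on the plus strand, with GATC, the only sequence Dam can methylate, in capitals. They are shown because Psi had no peak elsewhere in either Hox complex.
*Antp* intronic Psi peak 3R:6939671-6941584, window 3R:6940478-6940777: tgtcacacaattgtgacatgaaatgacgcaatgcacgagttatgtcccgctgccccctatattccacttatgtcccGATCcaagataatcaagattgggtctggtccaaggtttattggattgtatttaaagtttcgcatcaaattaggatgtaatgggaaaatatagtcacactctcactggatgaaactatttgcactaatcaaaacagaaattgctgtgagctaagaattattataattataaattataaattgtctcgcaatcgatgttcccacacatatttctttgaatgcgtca
*Antp* intronic Psi peak 3R:6950373-6953030, window 3R:6951552-6951851: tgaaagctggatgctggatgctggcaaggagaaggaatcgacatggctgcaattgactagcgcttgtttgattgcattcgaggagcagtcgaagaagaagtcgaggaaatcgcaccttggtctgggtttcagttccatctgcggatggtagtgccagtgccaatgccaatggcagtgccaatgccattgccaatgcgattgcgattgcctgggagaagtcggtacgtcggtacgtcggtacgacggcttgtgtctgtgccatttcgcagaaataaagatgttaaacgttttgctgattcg
*Antp* intronic Psi peak 3R:6991629-6994485, window 3R:6992908-6993207: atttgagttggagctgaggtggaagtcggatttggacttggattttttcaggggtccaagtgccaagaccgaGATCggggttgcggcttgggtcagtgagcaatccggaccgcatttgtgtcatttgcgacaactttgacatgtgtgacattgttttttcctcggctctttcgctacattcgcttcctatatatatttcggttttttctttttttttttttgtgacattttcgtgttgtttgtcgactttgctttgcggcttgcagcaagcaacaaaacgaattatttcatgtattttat
The capitals in the window of the peak 3R:6939671-6941584 are the site at which the shorter Myc peak over the same DNA ends. The window of the peak 3R:6950373-6953030 holds no GATC, so the call there rests on sites nearer the edges of the peak.

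Peaks of all 3 lists begin and end in a GATC, which sets how finely they can be placed. The ends of the *Antp* peak 3R:6991629-6994485 are shown with 20 bases on either side of the GATC, because the Psi and RNA Pol lists both gave exactly these ends.
first end, 3R:6991608-6991651, plus strand: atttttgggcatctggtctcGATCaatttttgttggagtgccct
last end, 3R:6994464-6994507, plus strand: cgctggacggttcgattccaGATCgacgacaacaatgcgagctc

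*Antp*, which gives the second thoracic segment its identity and turns antenna into leg when misplaced, spans 103 kb (3R:6896253-6999228, minus strand) with 12 annotated transcripts from 3 start sites. Its 4 Psi peaks were all intronic and together covered 7.99% of the gene. The 2 nearest to the 3' end scored highest. The one nearest to the 3' end (800 bp) scored 2.08 with an FDR of 0.00126, and 22.7% of Psi peaks scored higher. The peak at 3R:6939671-6941584 (1914 bp) scored 2.01 with an FDR of 1.04e-08, and 28.8% of Psi peaks scored higher. It took in 8 GATC fragments, against 3 or 4 in each of the other Psi peaks of the gene. The peak at 3R:6950373-6953030 (2658 bp) scored 1.81 with an FDR of 0.00341, close to the Psi median of 1.84. The peak at 3R:6991629-6994485 (2857 bp) scored 1.64 with an FDR of 0.00155, and 71.4% of Psi peaks scored higher. No Psi peak touched a start site of *Antp*, and the nearest ones lay 4.74 kb from the outermost start, 5.34 kb from the middle start and 6.83 kb from the innermost start. The 3 of these peaks nearest to the 3' end also lay within *CG46458*, a protein-coding gene annotated over the same DNA on the same strand, so they cannot be given to one gene rather than the other. Only the peak at 3R:6939671-6941584 had an FDR of 0.1% or less, so the count at *Antp* fell from 4 to 1 at that threshold.

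RNA Pol met *Antp* at the outermost promoter and in the first long intron. The peak at 3R:6999114-7003013 (3900 bp) covered the outermost start, which begins 5 of the 12 transcripts. It scored 1.13 and had an FDR of 0.00341. No other of the 16 peaks covered any of the 19 annotated start sites of its Hox gene. Of its length, 97.1% lay upstream of *Antp*, where it also covered *lncRNA:CR45899*. The intronic peak 3R:6991629-6994485 was the strongest RNA Pol peak at *Antp*, scoring 1.72 with an FDR of 4.93e-05, and only 7.02% of RNA Pol peaks scored higher. The same interval was called for Psi, where its score stood well below the Psi median. A short RNA Pol peak (3R:6893607-6894075, 469 bp, score 0.93, FDR 0.00153) lay 2.18 kb downstream of the gene. The innermost start, which begins 6 transcripts, was 38.8 kb from the nearest RNA Pol peak. Myc had a single peak at *Antp*, intronic at 3R:6939671-6940555 (885 bp, score 2.68, FDR 4.66e-06), below the Myc median of 2.97. All 885 bp of it fell within a Psi peak that starts at the same GATC.

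The outermost promoters of *Antp* and *Ubx*, which are 103 and 77.8 kb long, are shown to compare the start covered by RNA Pol with the start of the other long Hox gene, known for the haltere. Each line gives 250 bases before the start and 30 transcribed bases, in the direction of the gene, with GAGAG and its reverse complement CTCTC in capitals. This is the core of the sites bound by GAGA factor (*Trl*), a protein known to act at Hox promoters and Polycomb response elements.
*Antp* outermost start, 3R:6999199-6999478, minus strand: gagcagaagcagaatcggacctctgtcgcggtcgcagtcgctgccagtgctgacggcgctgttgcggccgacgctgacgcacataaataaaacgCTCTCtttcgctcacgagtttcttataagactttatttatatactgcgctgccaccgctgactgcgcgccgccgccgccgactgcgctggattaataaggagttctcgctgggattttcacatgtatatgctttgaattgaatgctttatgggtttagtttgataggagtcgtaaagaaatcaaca
*Ubx* start, 3R:16734397-16734676, minus strand: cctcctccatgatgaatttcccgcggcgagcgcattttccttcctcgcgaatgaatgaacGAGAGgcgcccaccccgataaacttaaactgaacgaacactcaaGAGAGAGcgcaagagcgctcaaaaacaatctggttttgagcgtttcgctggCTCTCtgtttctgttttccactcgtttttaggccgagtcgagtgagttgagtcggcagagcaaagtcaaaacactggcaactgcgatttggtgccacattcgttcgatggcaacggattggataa
The *Ubx* window held 4 matches and the *Antp* window 1. No peak of any list came within 14.2 kb of the *Ubx* start. Searched on both strands, with matches allowed to overlap, GAGAG was present at the outermost start of 6 of the 8 Hox genes, against 28.2% of the same windows at all 13945 protein-coding genes. It was present at 15 of the 19 Hox start sites, including all 3 of *Antp*. *pb* and *Abd-B* were the genes without it at the outermost start. The match thus occurred at genes with and without peaks. A match is a description of the letters, and no binding of GAGA factor was measured.

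*lab*, a Hox gene of the head that is also needed in the midgut, lies farthest from *Antp* in its complex (3R:6661427-6678590, 17.2 kb, minus strand). It had no Psi peak, and the nearest one was 236 kb away. RNA Pol and Myc each had 2 peaks at *lab*, a pair inside the intron and a pair beyond the 3' end. The intronic RNA Pol peak (3R:6674401-6675037, 637 bp) scored 0.93 with an FDR of 5.41e-05, and 88.9% of RNA Pol peaks scored higher. The intronic Myc peak (3R:6674104-6675205, 1102 bp) scored 3.04 with an FDR of 3.14e-07, close to the middle of its list, with 46.3% of Myc peaks higher. All 637 bp of the RNA Pol peak fell within the Myc peak, 3.55 kb inside the *lab* start. The centre of the RNA Pol peak is shown because it is the one interval inside a Hox gene other than *Antp* called in more than one list.
*lab* intronic RNA Pol and Myc peak, window 3R:6674570-6674869, plus strand: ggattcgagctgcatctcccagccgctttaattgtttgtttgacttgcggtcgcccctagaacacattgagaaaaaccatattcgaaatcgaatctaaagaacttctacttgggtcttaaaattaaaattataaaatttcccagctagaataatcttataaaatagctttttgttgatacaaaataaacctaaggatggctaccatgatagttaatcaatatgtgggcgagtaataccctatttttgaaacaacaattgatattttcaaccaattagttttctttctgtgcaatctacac
It holds no GATC, and the RNA Pol call took in 5 GATC fragments in all. The other pair, RNA Pol at 3R:6656840-6658198 (score 1.93, FDR 0.000831) and Myc at 3R:6656840-6658219 (score 2.86, FDR 0.000669), lay 3.23 and 3.21 kb beyond the 3' end of *lab*. Both covered the starts of the neighbours *CG1307* and *twr*. The RNA Pol peak was the highest-scoring of that list at any Hox gene, with 2.23% of RNA Pol peaks above it.

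*Ubx*, which makes a haltere out of a wing primordium, had 1 peak inside it, of RNA Pol. This peak (3R:16719353-16720200, 848 bp) lay in an intron 14.2 kb inside the single annotated start, scored 1.67 with an FDR of 1.99e-05, and had 9.82% of RNA Pol peaks above it. It covered the start of *asRNA:PS4*, an RNA annotated on the opposite strand within *Ubx* (3R:16720127-16729959, plus strand), and overlapped the first 74 bp of it. The bases around that start are shown because they hold the only peak of any list inside the bithorax complex, with 120 bases before the start in lower case and the first 30 transcribed bases in capitals.
*asRNA:PS4* start within *Ubx*, 3R:16720007-16720156, plus strand: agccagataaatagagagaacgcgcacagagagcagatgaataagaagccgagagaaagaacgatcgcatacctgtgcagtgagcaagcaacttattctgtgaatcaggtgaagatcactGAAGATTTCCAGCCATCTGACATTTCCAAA
TaDa does not read strand, so signal from *asRNA:PS4* and from *Ubx* cannot be told apart. The Myc peaks assigned to *Ubx* were both outside it, beyond the 3' end. One (3R:16654583-16656241, 1659 bp) was 0.382 kb from *Ubx* and scored 4.54 with an FDR of 8.15e-06, which only 3.90% of Myc peaks exceeded. It was the highest-scoring Myc peak at a Hox gene, and it covered the start of *modSP*, a serine protease gene. The other (3R:16650658-16651819, score 2.23, FDR 0.000669) was 4.80 kb away and covered the start of *Mettl4*. No Psi peak lay within 317 kb of *Ubx*, the largest such distance among the 8 Hox genes.

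*Scr*, the Hox gene of the labial and first thoracic segments (3R:6823120-6849981, 26.9 kb), had 1 assigned peak. This Myc peak (3R:6814926-6820358) was 5433 bp long and lay 2.76 kb beyond the 3' end. It scored 1.69 (FDR 0.00482) and had 95.1% of Myc peaks above it. Under it lay the starts of *lncRNA:CR42651* and of the lysine tRNA gene *tRNA:Lys-TTT-2-1*. Across the 8 genes, the farthest peak still assigned was the Myc peak 4.80 kb from *Ubx*, and the nearest left out was an RNA Pol peak (3R:6810313-6813221, score 1.38) 7.89 kb from *Dfd* and 9.90 kb from *Scr*. *pb* (34.3 kb, mouthparts), *Dfd* (10.6 kb, maxillary and mandibular segments), *abd-A* (22.8 kb, anterior abdomen) and *Abd-B* (45.0 kb, posterior abdomen and genitalia) had no assigned peak.

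Peaks outside a Hox gene mostly sat on a neighbour. Of the 6 peaks beyond the gene ends, 5 covered the annotated start of another gene, and of the 10 that overlapped a Hox gene, 2 did. The exception outside was the short RNA Pol peak downstream of *Antp*. Over whole lists, 18.3% of Psi, 49.1% of RNA Pol and 50.5% of Myc peaks covered a start of an annotated gene. None of the 4 Psi peaks at *Antp* did. Of the 10 peaks overlapping a Hox gene, 9 lay wholly in introns and the 1 other was that over the outermost *Antp* start.

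Counts of Hox genes with a peak were read against protein-coding genes at large. A Psi peak was assigned to 1 of 8 Hox genes, RNA Pol peaks to 3 and Myc peaks to 4. The shares over all protein-coding genes were 14% for Psi, 22.7% for RNA Pol and 31.7% for Myc. Hox genes are long, and among the 1784 genes with lengths between those of *Dfd* and *Antp* the shares were 32.3% for Psi, 38.4% for RNA Pol and 44.1% for Myc. The Hox counts of 3 (37.5%) for RNA Pol and 4 (50%) for Myc were near these shares, whereas the Psi count of 1 (12.5%) was under that of genes of like length. For peaks overlapping the gene, the counts were 1 for Psi, 3 for RNA Pol and 2 for Myc, beside 26%, 29.6% and 30.8% of genes of the same length range. The 4 Hox genes with no peak of any list stood beside 41.3% of genes of that range. With 8 genes in all, 1 gene more or less shifts a share by 12.5 percentage points, and no test was made.

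*Antp* and *Ubx* are the long Hox genes, so they were also set beside the 297 protein-coding genes of 50 to 200 kb. At least 4 Psi peaks, the number at *Antp*, were assigned to 13.5% of these. No Psi peak, as at *Ubx*, was assigned to 53.2%. Among long genes, having no Psi peak was thus the more common case and having 4 the less common one. Per 10 kb of gene and flanks, *Antp* had 0.354 Psi, 0.266 RNA Pol and 0.0885 Myc peaks. The other 7 Hox genes together had 0 Psi, 0.0985 RNA Pol and 0.164 Myc peaks over 304.5 kb, and the genome had 0.128, 0.117 and 0.146. The order of *Antp* and the rest was thus the opposite for Myc, where 5 of the 6 peaks were at genes other than *Antp*.

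**Figure D2:**
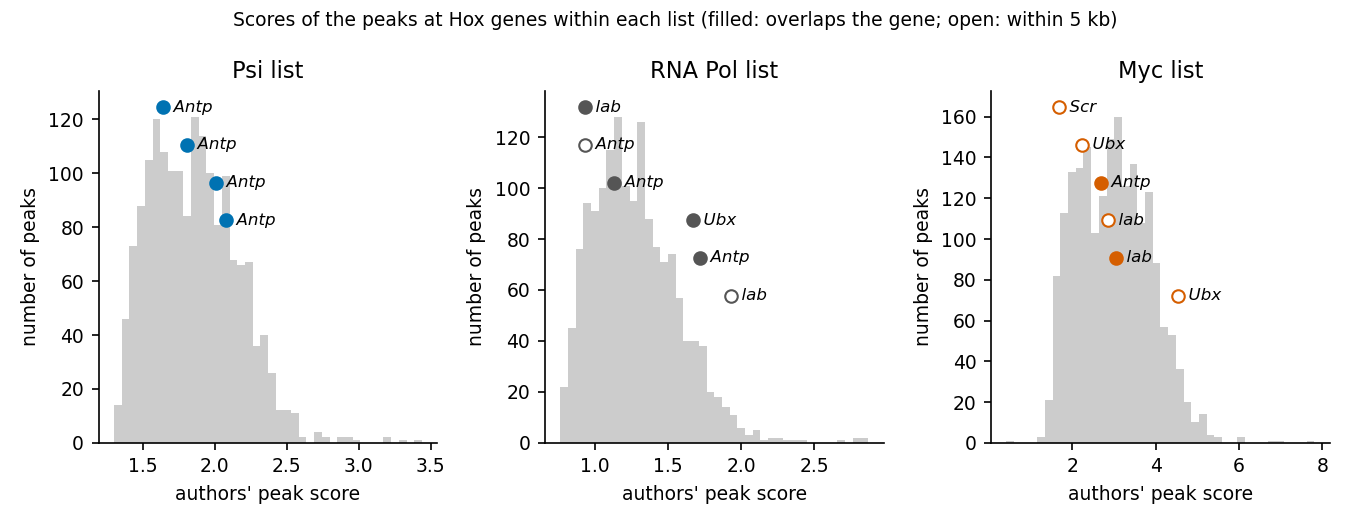
Histograms of the peak score in each list (x axis, score without unit; y axis, number of peaks), with the peaks at Hox genes drawn over them and named by gene at their score, filled where the peak overlaps the gene and open where it lies within 5 kb; the height of a marker has no meaning. The 4 *Antp* Psi peaks run from 1.64 to 2.08 around the list median of 1.84, and the markers farthest right in the other lists are an RNA Pol peak beyond *lab* at 1.93 and a Myc peak beyond *Ubx* at 4.54.

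Scores did not set *Antp* apart within any list. Its Psi scores of 1.64 to 2.08 spanned the middle of a list that ran from 1.3 to 3.44. Its RNA Pol peaks scored 0.93, 1.13 and 1.72 in a list from 0.76 to 2.87 with a median of 1.24. The best of these, 1.72, was a little above the 1.67 of the *Ubx* peak and below the 1.93 of the peak shared by *CG1307* and *twr* beside *lab*. Its Myc score of 2.68 was exceeded by 3 of the 5 Myc peaks at the other genes.

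Beyond the 5 kb window, the distance to the nearest Psi peak separated *Antp* from all other Hox genes. The Psi distance was 64.8 kb for *Scr*, 79.0 kb for *Abd-B*, 112 kb for *Dfd*, 173 kb for *pb*, 221 kb for *abd-A*, 236 kb for *lab* and 317 kb for *Ubx*. The nearest Psi peak was thus over 50 kb away for 7 of 8 Hox genes, beside 32.5% of genes of the same length range. The 4 genes of the Antennapedia complex other than *Antp* have one and the same nearest Psi peak, inside *Antp*, and the 3 genes of the bithorax complex share another, beyond *Abd-B*. The 7 distances thus rest on 2 peaks, follow the places of the genes in the complexes and are not independent. RNA Pol was over 50 kb away only for *abd-A* (87.0 kb), 1 of 8 genes beside 22.5%. Myc was over 50 kb away for *abd-A* (151 kb) and *Abd-B* (52.0 kb), 2 of 8 genes beside 15.3%. For the genes without peaks in the Antennapedia complex, RNA Pol was nearer, at 7.89 kb from *Dfd* and 17.4 kb from *pb*. The median nearest distance over all 8 Hox genes was 143 kb for Psi, 8.89 kb for RNA Pol and 7.63 kb for Myc, beside 22.6, 13.1 and 8.44 kb for genes of the same length range. Only the Psi median stood far from that of other genes.

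**Figure D3:**
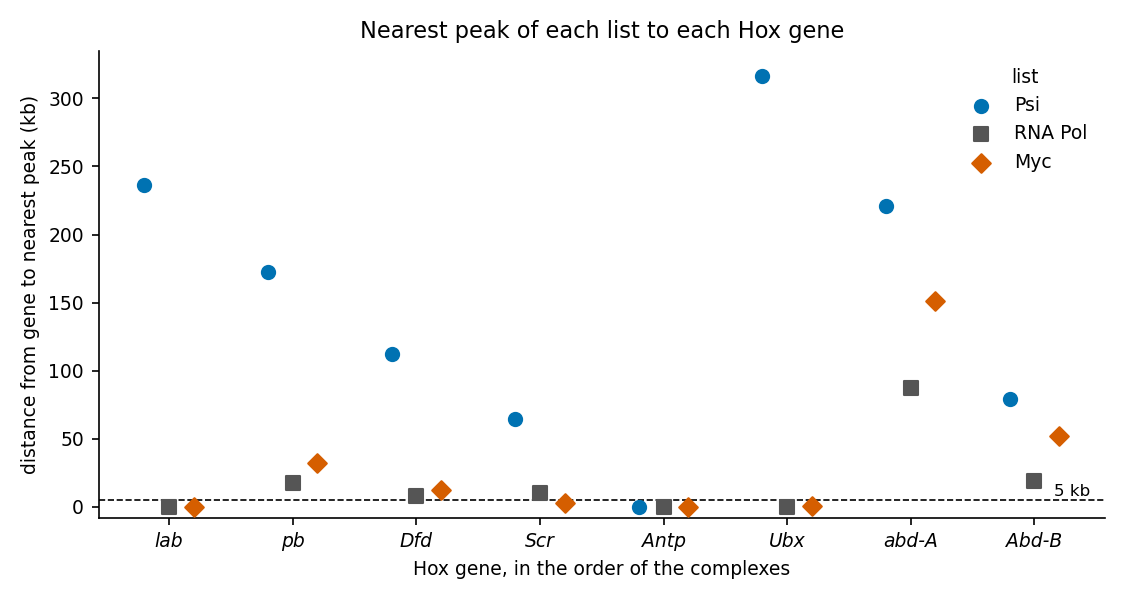
Distance in kb from each Hox gene (x axis, in the order of the complexes) to the nearest Psi, RNA Pol and Myc peak, with the 5 kb limit dashed. The Psi point is at 0 for *Antp* and between 64.8 and 317 kb for the other 7 genes. RNA Pol and Myc points are at 0 for *lab* and *Antp*, and the RNA Pol point is also at 0 for *Ubx*. They reach 87.0 kb for RNA Pol and 151 kb for Myc at *abd-A*.

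The complexes as wholes differed from each other in all 3 lists. From *lab* to *Antp* (338 kb) there were 4 Psi, 6 RNA Pol and 3 Myc peaks, and from *Ubx* to *Abd-B* (316 kb) there were 0, 1 and 0. Over the 3 lists this was 3.85 peaks per 100 kb in the Antennapedia complex and 0.317 in the bithorax complex, against 3.60 over the arm 3R. Peaks covered 6.13% of the Antennapedia complex, 0.269% of the bithorax complex and 4.67% of 3R. By list, the Antennapedia complex had 1.18 Psi, 1.78 RNA Pol and 0.888 Myc peaks per 100 kb, beside 1.20, 1.06 and 1.34 over 3R. GATC sites were somewhat sparser in the bithorax complex, at 2.04 per kb against 2.42 in the Antennapedia complex and 2.74 over 3R. What part this has in the number of peaks was not tested.

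From inside *Ubx* to beyond *Abd-B* no list had a peak for 271 kb (3R:16720201-16991453). This stretch takes in 10 protein-coding genes and was the 34th longest of 3344 stretches without a peak, and the 8th longest on 3R. It held 2.20 GATC sites per kb, beside 2.74 over 3R, and what part this has in its length was not tested. For Psi alone, long empty stretches held the bithorax complex and the part of the Antennapedia complex from *lab* to the nearest Psi peak of *Antp*. One of 747.5 kb covered the whole bithorax complex and was the 10th longest of 1704 (median 15.4 kb), and the 2nd longest on 3R. Another of 670 kb ran from beyond the 3' end of *lab* through *Scr* to the Psi peak nearest to the 3' end of *Antp*. It was the 14th longest in all and the 4th on 3R. These Psi stretches held 84 and 76 protein-coding genes, so the Hox genes were a small part of what they left empty. The 8 longest stretches without a peak of any list lay on 2R, 3L and X, were 525 to 1445 kb long and held 2 to 51 protein-coding genes each. The Hox stretch, with 10, was shorter than all of them, so these counts do not compare like lengths.

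**Figure D4:**
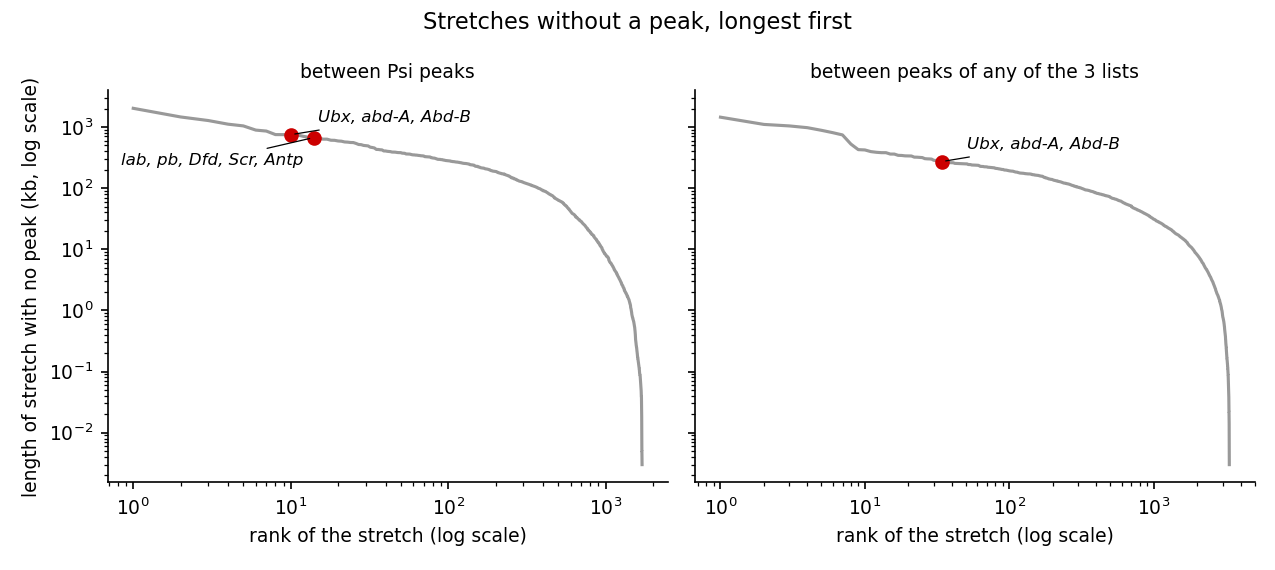
Lengths of the stretches without a peak (y axis, kb, log scale) against their rank from longest to shortest (x axis, log scale). The panels are for Psi peaks and for peaks of any list. Red marks the 2 longest Psi stretches that overlap Hox genes and, for any list, the longest such stretch. Shorter stretches over Hox genes are not marked. The 2 Psi stretches in red are 747.5 and 670 kb long at ranks 10 and 14 of 1704. The any-list stretch in red, over *Ubx*, *abd-A* and *Abd-B*, is 271 kb long at rank 34 of 3344.

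The Antennapedia complex also holds *bcd*, which patterns the embryo's anterior, *zen* and *zen2*, of dorsal fate, the pair-rule gene *ftz* and the cell adhesion gene *Ama*. None of these 5 had a Psi or Myc peak. An RNA Pol peak (3R:6759425-6761867, score 1.31, FDR 1.99e-05) overlapped *bcd* and lay 0.726 kb from *Ama*, while *zen* was 5.23 kb, *zen2* 15.3 kb and *ftz* 27.4 kb from the nearest RNA Pol peak. Of 25 non-coding RNA genes annotated in the Antennapedia complex, 13 were within 5 kb of a peak, beside 38.1% of 3371 such genes on the chromosome arms. Of these 13, 8 lay within 5 kb of the single Myc peak beside *Scr*, among them 4 lysine tRNA and 2 7SL RNA genes. The 13 also included *mir-10*, a microRNA gene between *Dfd* and *Scr*, 0.731 kb from the RNA Pol peak that covered *lncRNA:CR45915* and part of *lncRNA:CR42651*. Of 11 in the bithorax complex, only *asRNA:PS4* was. *lncRNA:bxd*, transcribed from the regulatory region upstream of *Ubx*, was 21.9 kb from the nearest RNA Pol peak, *lncRNA:iab8* 68.2 kb, and the microRNA genes *mir-iab-4* and *mir-iab-8*, which lie on opposite strands of the same DNA, 135 kb.

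Among the partners of Hox proteins, *hth* had the most peaks, but it was also much the longest gene. *exd* is 4.04 kb, *tsh* 8.42 kb and *tio* 6.53 kb long. These counts were not set beside genes of like length. Hth brings the Hox cofactor Exd into the nucleus, and its gene (132 kb) had 15 Psi peaks with a highest score of 2.27, 3 RNA Pol peaks (highest 1.06) and 3 Myc peaks (highest 2.71). *exd* had none, its nearest Psi peak being 106 kb away. *tsh*, a zinc finger gene that acts with Hox genes in the trunk, had 1 RNA Pol (1.08) and 1 Myc peak (1.53), and its paralogue *tio* had none. These genes were chosen for their role, and *hth* is also active in the wing disc hinge and notum.

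Wing selector and compartment genes, which act in the disc itself, were the clearest comparison. Of 11 such genes (*ap*, *vg*, *sd*, *en*, *inv*, *nub*, *pdm2*, *ci*, *bi*, *Dll* and *rn*), all 11 had a Psi peak, 51 peaks in all, 8 (72.7%) had RNA Pol and 5 (45.5%) had Myc. The 3 Iroquois genes *ara*, *caup* and *mirr* all had Psi, 1 had RNA Pol and none had Myc. Of the 7 Hox genes other than *Antp*, 0 had Psi, 2 (28.6%) had RNA Pol and 3 (42.9%) had Myc. The selector and Hox sets differed most in Psi and least in Myc. Genes of the Hox length range had shares of 32.3%, 38.4% and 44.1% for Psi, RNA Pol and Myc. All protein-coding genes had 14%, 22.7% and 31.7%. The Myc shares of the selector and Hox sets were thus near that of genes of the Hox length range. The highest Psi score at *Antp* (2.08) lay inside the range of highest Psi scores of the selector genes, from 1.38 at *en* to 2.36 at *vg*. Both sets were drawn up with earlier results of these data known, so the contrast describes these lists.

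**Figure D5:**
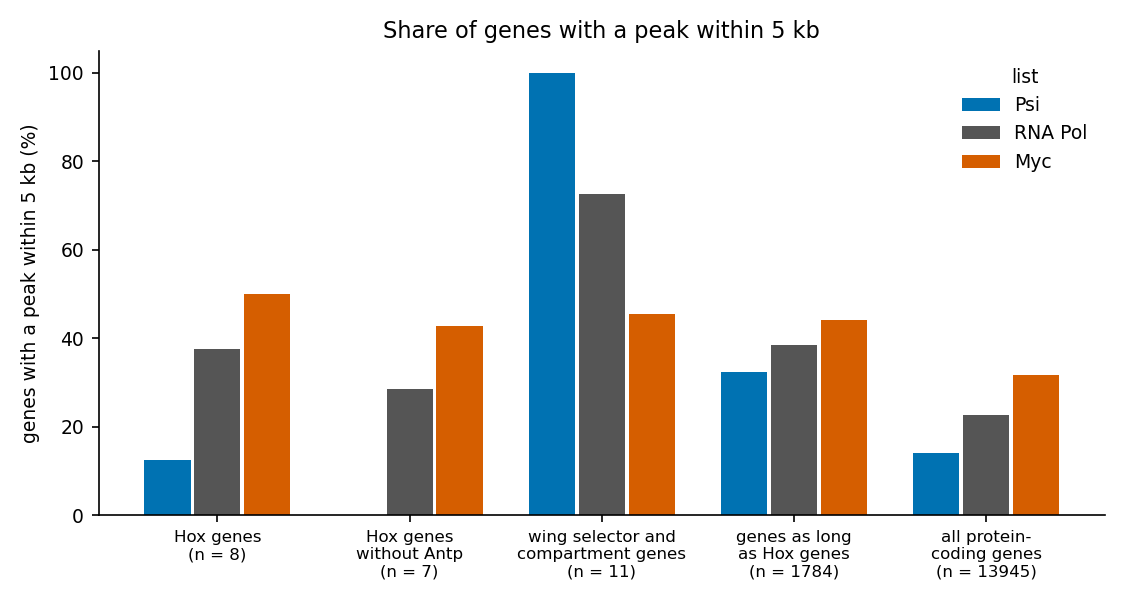
Percentage of genes with a Psi, RNA Pol or Myc peak within 5 kb (bars from 0, no error bars because each list is 1 average) for the Hox genes, the Hox genes without *Antp*, the wing selector and compartment genes, genes of the length range of the Hox genes and all protein-coding genes. Psi is at 12.5% and 0% in the Hox sets and at 100% in the selector genes, while Myc lies between 31.7% and 50% in all 5 sets.

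By the numbers of peaks in the 3 lists, the gene most like *Antp* was *Dll*, which directs leg and wing margin growth. It had the same 4 Psi, 3 RNA Pol and 1 Myc peaks in 20.8 kb as *Antp* had in 103 kb, and was the 1 gene with identical numbers among all protein-coding genes. Another 14 genes differed by 1 peak in all. Those nearest in length were *Tet* (5, 3 and 1 peaks), *Ten-m* (4, 2 and 1), *fru* (4, 4 and 1) and *Ptp61F* (4, 4 and 1), all between 93.0 and 133 kb long. Likeness was the sum of differences over 3 counts, each from 1 list, and says nothing of the position of the peaks.

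Sharing of peaks between lists was counted at the Hox genes, where 4 to 6 peaks a list allow only a coarse comparison. Myc overlapped a Psi peak at *Antp* and 2 RNA Pol peaks at *lab*, by at least 1 bp. This was 1 of 4 Psi peaks, beside 42.2% of the whole Psi list, and 2 of 6 RNA Pol peaks, beside 50.3% of that list. Counted over Myc peaks, 1 of 6 met Psi and 2 of 6 met RNA Pol, beside 36.4% and 39.6%. Short motifs were counted in the same peaks on both strands. CACGTG, the E-box that Myc and its partner Max bind, was in the central 300 bases of none of the 16 peaks, beside 8.61% of Myc, 3.04% of Psi and 2.93% of RNA Pol peaks. Over full lengths it was in 3 of the 15 distinct intervals, the Myc peak beside *Scr* and the peaks of *Antp* at 3R:6991629-6994485 and at the outermost start. GAGAG was in the centre of 1 of 4 Psi, 1 of 6 RNA Pol and 2 of 6 Myc peaks, beside 37.7%, 37.6% and 35.8% of the lists. Over full lengths, where longer peaks hold more matches, GAGAG was in 12, TCAGT (initiator core) in 14 and TATAAA, found in many core promoters, in 13 of the 15 intervals, and no share over the lists was computed for full lengths.

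Peaks were also counted at marker genes of cell types, since expression was not analysed here. The markers *vg*, *nub*, *sd*, *ap*, *rn* and *bi* also stand in the selector set above, so these counts are no separate check of the tissue label. Psi and RNA Pol peaks were at 8 and 7 of 8 wing epithelium markers (*vg*, *nub*, *sd*, *ap*, *rn*, *bi*, *wg* and *dpp*). Myc peaks were at 4 of these 8. Psi peaks were at 2 of 3 myoblast, 0 of 3 haemocyte, 1 of 2 tracheal, 1 of 3 neuronal, 0 of 3 muscle and 0 of 3 fat body markers. RNA Pol peaks were at 1, 0, 1, 1, 0 and 1 of the same lists, and Myc peaks at 1, 1, 0, 3, 0 and 1. The neuronal markers thus all had a Myc peak, and the shares over all protein-coding genes were 14%, 22.7% and 31.7%. Genes of the Hox length range, nearer in length to the epithelium markers (median 27.4 kb), had shares of 32.3%, 38.4% and 44.1%. A peak is not a measure of expression, so these counts describe binding at the markers only. *Ubx* also served as the marker of haltere and hind leg discs, and its RNA Pol peak is the one described above.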

How the data were processed

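Genomic DNA of 16 wing disc samples was cut at methylated GATC sites, amplified and sequenced. With damidseq_pipeline, the authors mapped the reads (Bowtie2, BDGP6), took the log2 ratio of fusion to Dam alone per GATC fragment and averaged 3 replicates per fusion, and find_peaks then called peaks at a 1% FDR. No source used here names the versions. For each peak the deposited lists give its position, a score of unstated formula and an FDR. An FDR is a q-value that the authors derived for the average profile, so replicate spread and read depth are unknown and no interval was given.

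Samples were grouped by title, since the description labels, which read as RNAi or control, conflict with the titles. Peaks were assigned to genes of Ensembl release 115 (BDGP6 version 54) at a distance of at most 5 kb. Background shares came from 13945 protein-coding genes and from 1784 of them within the length range of the Hox genes. The distance rule was checked on simulated data with 200 genes drawn from 13945. For each gene a peak was planted at or beyond its higher-coordinate end, and 200 of 200 distances were given back. The search among all genes was not part of this check. Named genes are the 8 Hox genes, the other genes of the complexes, *exd*, *hth*, *tsh*, *tio*, wing selector and Iroquois genes, markers of cell types, and the 5 genes nearest to *Antp* in numbers of peaks. The sequence of 1 *Antp* peak is not reported here. Neighbours whose starts lay under a peak were named after their values were seen. The Hox genes and all lists were chosen with earlier results of these data known. Alternatives were an overlap, 1 kb or 10 kb in place of 5 kb, an FDR of 0.1%, each peak at its nearest gene only, peaks less than 500 bp apart merged, and an overlap of 50% between lists. Python 3.11.15, numpy 2.4.6, pandas 2.3.3 and matplotlib 3.10.9 were used.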

Additional observations from a re-analysis of the deposited data

How the results depend on the processing

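Each list is 1 average with no column per sample, so no replicate could be left out. No paired analysis was possible because the lists carry no replicate values. Under other settings 50 values stayed the same, taken as within 1.5 times the main count or inside the 95% Wilson interval of a share, and 26 did not. The 26 include the background shares given below. Some falls still counted as the same. With overlap or within 1 kb, RNA Pol peaks went from 6 to 4 at the Hox genes and from 3 to 2 at *Antp*. With overlap required, Hox genes with a Myc peak fell to 2, their Myc peaks to 2, and peaks at the 7 genes other than *Antp* to 3. Within 1 kb the latter counts were 3 and 4, and the same 3 and 4 with each peak only at its nearest gene. In the nearest-gene setting, peaks lying within both *Antp* and *CG46458* were still counted at *Antp*. Within 10 kb, 5 Hox genes had RNA Pol. At an FDR of 0.1%, *Antp* and all Hox genes kept 1 Psi peak and *Antp* kept 1 RNA Pol peak, which left 3 peaks at *Antp* and 7 at the other genes. In all of these settings Psi was assigned to *Antp*. No setting could add another Hox gene. The settings reached at most 10 kb, and among the other Hox genes the smallest distance to a Psi peak was 64.8 kb, at *Scr*. Background shares of all protein-coding genes for genes as long as the Hox genes, overlap, 1 kb, 10 kb and an FDR of 0.1% were 32.3%, 6.27%, 7.92%, 21.5% and 10.6% for Psi. For RNA Pol they were 38.4%, 11.2%, 13.6%, 32.4% and 15%, and for Myc 44.1%, 15%, 19.2%, 43.1% and 21.7%. Merging peaks changed no count. The unknown depth limits what the absence of a peak can show.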
